A study of Mus musculus with 8 samples.

Results

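Interferon-stimulated genes are the genes that cells switch on after an interferon binds its receptor, and 31 of them, given by name, were followed here in mouse regulatory T cells. A probe set of the array was taken for a gene where the deposited annotation gives it the Entrez identifier of that gene. All 31 genes had at least 1 such probe set, 49 probe sets in all, on an array whose single-identifier probe sets represent 20665 identifiers. For 29 genes a probe set with a single identifier was used, the brightest where there were several. Isg15 and Usp18 were covered only by probe sets that carry more than 1 identifier, so their values could include signal of the other gene named there.

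The study sorted CD4+CD25+ T cells by 2 fluorescent reporters. GFP-RFP+ cells are labelled as peripherally induced regulatory T cells and GFP+RFP+ cells as thymically induced ones. Each population was taken from the spleens and from the lymph nodes of 20 untreated mice aged 14 to 17 weeks, pooled by organ. This gave 4 pools: GFP-RFP+ and GFP+RFP+ cells of the spleen, and GFP-RFP+ and GFP+RFP+ cells of the lymph nodes. Each pool was labelled from 50 ng of RNA and hybridised to 2 one-colour Affymetrix arrays, which are technical replicates by their titles. All 4 pools carry RFP. The labels do not state the strain, the sex or the promoters behind GFP and RFP. The 2 arrays of a pool show technical error only. The spread between mice was not measured, and the populations could be compared a second time only in the other organ.

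Type I interferons signal through the receptor Ifnar1-Ifnar2 and the kinases Jak1 and Tyk2 to a complex that holds Stat2 and Irf9 and binds the interferon-stimulated response element (ISRE). Interferon gamma signals through Ifngr1-Ifngr2 and acts on genes such as Irf1 through the gamma-activated sequence (GAS). In regulatory T cells, interferon signalling is known to affect both their number and their suppressive function.

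These elements can be looked for in the promoters of the genes. RefSeq promoter windows of GRCm38.p6, from 250 bases before to 50 bases after a gene's start, were found for 22 of the 31 genes. The 9 others are Mx1, Rtp4, Parp9, Zbp1, Ly6a, Usp18, Dhx58, Oas2 and Parp14. The stretches that follow are written 5′ to 3′ on the strand of the gene, and the capitals mark the motif match. They show the ISRE of 4 genes described below, Isg15, Rsad2, Ifit3 and Gbp2, and the GAS of Irf1. Usp18 and Ly6a, which had larger population differences than Gbp2, are among the genes without a window.
Isg15, chr4:156200850-156200909, minus strand: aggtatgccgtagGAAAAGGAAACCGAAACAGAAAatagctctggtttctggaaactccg
Rsad2, chr12:26456538-26456597, minus strand: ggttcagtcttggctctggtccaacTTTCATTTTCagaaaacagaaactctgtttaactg
Ifit3, chr19:34583382-34583441, plus strand: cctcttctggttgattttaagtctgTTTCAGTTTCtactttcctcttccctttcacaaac
Gbp2, chr3:142620579-142620638, plus strand: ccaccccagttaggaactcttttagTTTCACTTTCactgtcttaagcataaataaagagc
Irf1, chr11:53769899-53769957, plus strand: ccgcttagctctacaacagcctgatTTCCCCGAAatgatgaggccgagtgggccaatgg

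The ISRE was searched as GAAA, any 2 bases and GAAA, and the GAS as TTC, any 3 bases and GAA, on both strands. In Isg15 the capitals hold 3 overlapping ISRE matches, and in Rsad2, Ifit3 and Gbp2 the match lies on the opposite strand and reads TTTC, 2 bases and TTTC. The ISRE letters occurred in 11 of the 22 genes, or 50.0%, against 3.99% of all 27025 genes with a window and 3.44% of all 32851 windows. The 11 genes are Bst2, Gbp2, Gbp3, Ifih1, Ifit1, Ifit3, Isg15, Oas1a, Oas3, Rsad2 and Stat2. The GAS letters occurred in 7 of the 22, or 31.8%, against 9.55% of all genes with a window, and these were Bst2, Ifi35, Ifit2, Irf1, Isg20, Oas1a and Samhd1. Bst2 and Oas1a held both motifs, which overlap in Bst2, and 6 genes held neither. A match describes these letters in this window and is not evidence that a factor binds there.

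The arrays were checked against the labels before the interferon-stimulated genes were compared. The authors' detection calls, which the files do not tie to samples, were Present for 53.3% to 56.2% of probe sets per array, and 17476 probe sets (38.8%) were Present on all 8 arrays. These 17476 are called the detected probe sets below. Foxp3, the factor that defines regulatory T cells, was Present on all 8 arrays. Its values were 1003 and 905 in spleen GFP-RFP+ cells and 1579.9 and 1427 in spleen GFP+RFP+ cells. In lymph node it had 992 and 1084 in GFP-RFP+ cells and 1386 and 1529.9 in GFP+RFP+ cells. Foxp3 was thus detected in both populations, with every GFP-RFP+ array below every GFP+RFP+ array. Cd4 and Cd3e were also detected. Of 9 regulatory T cell markers, Foxp3 among them, 8 were Present on all 8 arrays. All GFP-RFP+ arrays were higher for 3 of the 9 and lower for 3, beside 23.8% and 13.1% of the detected probe sets. Markers of other cells were detected in part. Present on all 8 arrays were 3 of 6 B cell markers and 2 of 8 myeloid and dendritic cell markers. The count was 1 of 6 for CD8 T and NK cells, 1 of 4 for plasmacytoid dendritic cells and 0 of 6 for erythroid cells. Itgam was Present on 2 of the 8 arrays and Cd8a on 4.

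All expression values are linear model-based intensities made with dChip, and differences are given on the log2 scale as the mean of the 2 arrays of a pool. Of the 31 genes, 27 were Present on all 8 arrays. Oasl2, Stat2 and Ifi44 were Present on 7, and Oas3 on 0, so Oas3 was not detected by the authors' calls. The mean values of the 31 genes reached 3041 and had a median of 432, beside a median of 25.1 over all 45037 probe sets that are not controls. All 31 lay above that median, with the brightest probe set taken where a gene had several. Dimmer probe sets of Rtp4 (9.29), Xaf1 (16.6) and Dhx58 (16.4 and 10.6) lay below it. The 2 arrays of a pool differed by a median of 0.085 log2 units over the 124 pairs of values of these genes, and by at most 0.65.

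The interferon-stimulated genes tended to be lower in GFP-RFP+ cells than in GFP+RFP+ cells, by small amounts, with Usp18 far below the others and Irf1 on the opposite side. The difference, GFP-RFP+ minus GFP+RFP+, was below 0 for 23 genes and above 0 for 8, with a median of -0.16. The median was 0.0095 over all probe sets and 0.039 over the detected ones. It was lower in both organs for 21 of the 31 genes, or 67.7%, whereas 33.0% of the detected probe sets were lower in both. In spleen the median of the 31 genes was -0.21 against 0.023 over the detected probe sets, and in lymph node it was -0.084 against 0.057. For 10 genes all 4 GFP-RFP+ arrays lay below all 4 GFP+RFP+ arrays, which is 32.3% of the 31 beside 13.1% of the detected probe sets. These were Usp18, Gbp2, Ifi35, Ly6a, Irf9, Stat2, Rtp4, Ifit2, Parp9 and Parp14. Irf1 alone among the 31, or 3.23%, had all 4 GFP-RFP+ arrays above all 4 GFP+RFP+ arrays, beside 23.8% of the detected probe sets. Without overlap in either direction were 11 of the 31 genes, beside 36.9% of the detected and 19.5% of all probe sets.

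None of these differences passed the test over the 4 pools. In limma, with the organ as a term and p-values adjusted by Benjamini-Hochberg over all 45037 probe sets, 0 of the 31 genes and 0.0% of the probe sets had an adjusted p below 0.05. The lowest adjusted p was 0.282, also for Usp18, and 7282 probe sets, with 2 of the 31 genes among them, had an unadjusted p below 0.05. The fit has 1 residual degree of freedom. Fitted on the 22518 probe sets above the median level alone, the same model called 6 of the 31 genes beside 19.9% of the probe sets: Irf1 as higher, and Usp18, Ly6a, Gbp2, Ifi35 and Oas3 as lower in GFP-RFP+ cells. Of these 6, Oas3 was Present on 0 arrays. By that setting 6.21% of the probe sets were lower and 13.7% higher. Over all probe sets the model called 7 of the 31 genes beside 14.0% with an offset of 50 added to the values, 10 beside 14.7% with a prior variance that follows the level, and 7 beside 10.4% with the 8 arrays as samples. Irf1 was higher and Usp18, Ly6a, Gbp2 and Ifi35 lower in GFP-RFP+ cells in each of these 4 settings. The fit on 8 arrays counts technical replicates as separate samples, which gives 5 residual degrees of freedom without any further mice. All 4 settings use the same 4 pools, so they are not independent of each other.

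The regulators of interferon signalling come first. Usp18 encodes the protease that removes Isg15 from proteins and dampens signalling at Ifnar2. Its values were 283 and 179.9 in spleen GFP-RFP+ cells, against 535 and 573 in spleen GFP+RFP+ cells. In lymph node they were 298 and 309.8 in GFP-RFP+ cells, against 632 and 638 in GFP+RFP+ cells. The populations did not overlap in either organ. The difference was -1.30 in spleen and -1.06 in lymph node, and -1.18 ± 0.13 over both (SE, 4 pools; unadjusted 95% interval -1.66 to -0.70), which is 2.26-fold lower in GFP-RFP+ cells. Its adjusted p in limma was 0.282 over all probe sets and 0.006 over those above the median level. By the probe sets that represent the genes, Usp18 was also the only one of the 31 that differed by at least 0.5 log2 units without overlap of the arrays in both organs. Second probe sets of Samhd1 and Xaf1, described at the end, met this rule as well. In that same sense 8.1% of all probe sets and 10.3% of the detected ones differed in both organs, with 8.2% of the detected ones higher and 2.05% lower.

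Irf1 encodes an interferon-induced transcription factor. It had 3509 and 3552 in spleen GFP-RFP+ cells, against 2592 and 2475 in spleen GFP+RFP+ cells. In lymph node it had 3549 and 3405 in GFP-RFP+ cells, against 2179 and 2195 in GFP+RFP+ cells. All GFP-RFP+ arrays were thus higher. The difference was 0.57 ± 0.12 (SE, 4 pools; 95% interval 0.12 to 1.02), a 1.49-fold higher value in GFP-RFP+ cells. The adjusted p in limma was 0.288 over all probe sets and 0.022 over those above the median level.

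Irf9 and Stat2, which belong to the complex that binds the ISRE, were on the low side. They fall outside the rule for genes given on every array and were picked after their values were seen. Irf9 had 648 and 648 in spleen GFP-RFP+ cells, against 793 and 815 in spleen GFP+RFP+ cells. In lymph node Irf9 had 609 and 647 in GFP-RFP+ cells, against 779.9 and 769.7 in GFP+RFP+ cells. The arrays of the populations did not overlap, and the difference was -0.31 ± 0.11 (SE, 4 pools; adjusted p = 0.350 in limma). The difference of Stat2 was -0.26 ± 0.11, while a second Stat2 probe set, Present on all 8 arrays, differed by only 0.0038. Irf7, which drives the later wave of type I interferon genes, had a difference of 0.0062 with overlapping arrays.

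**Figure D1:**
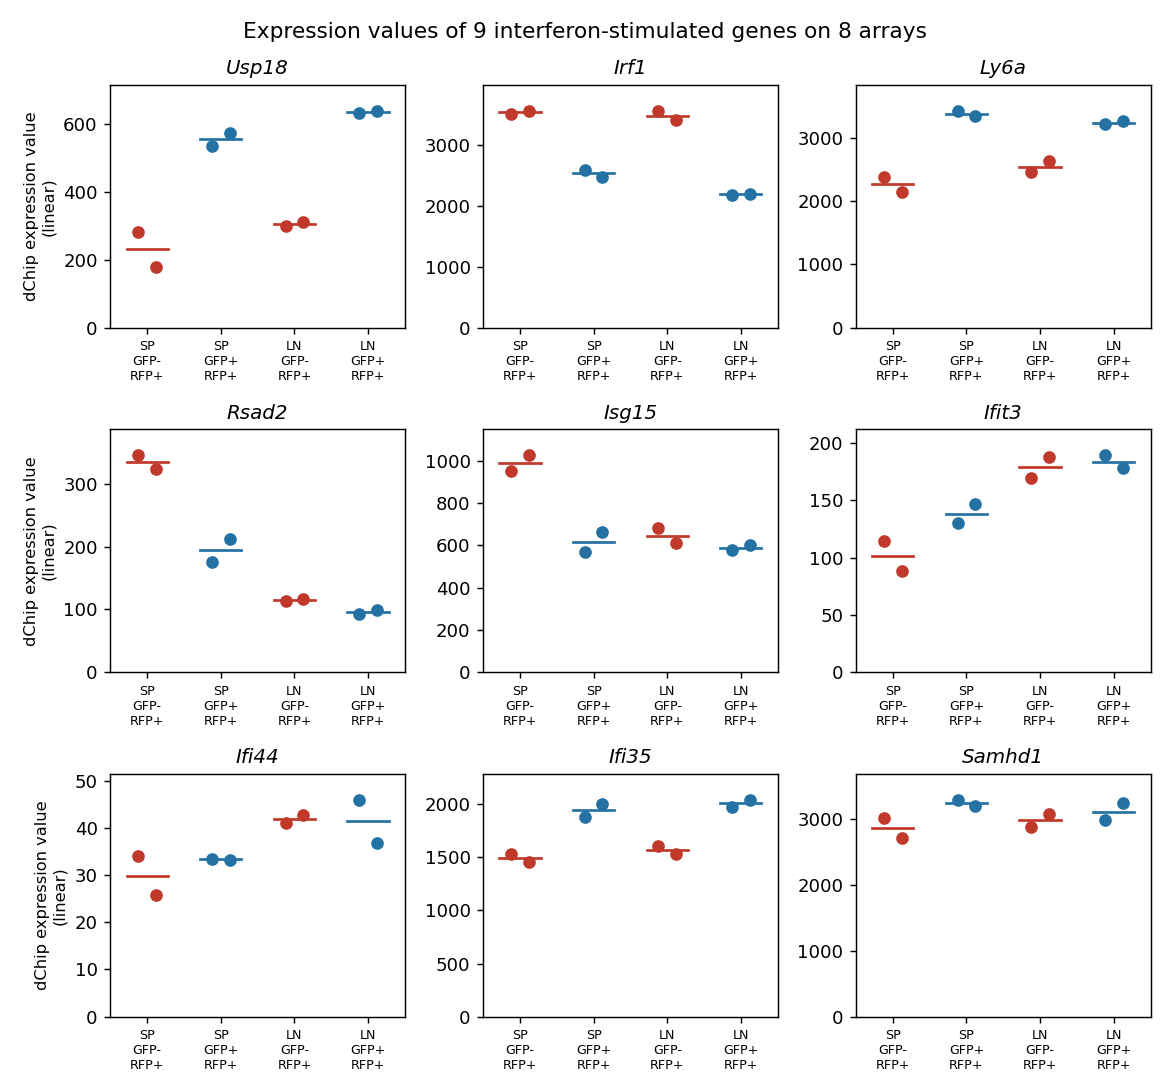
Linear dChip expression values of 9 interferon-stimulated genes, with the vertical axes starting at 0. Dots are the 8 arrays and lines the mean of the 2 technical replicates of a pool (red GFP-RFP+, blue GFP+RFP+; SP spleen, LN lymph node). Usp18, Ly6a and Ifi35 are lower and Irf1 is higher on every GFP-RFP+ array, and Rsad2 lies between 176 and 345 in spleen and between 93.3 and 117 in lymph node.

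Among the effector genes, the surface protein Ly6a (Sca-1) had 2384 and 2136 in spleen GFP-RFP+ cells, against 3419.5 and 3336 in spleen GFP+RFP+ cells. In lymph node Ly6a had 2458 and 2626 in GFP-RFP+ cells, against 3211 and 3253 in GFP+RFP+ cells. Both organs showed the lower value in GFP-RFP+ cells, and the difference was -0.46 ± 0.13 (SE, 4 pools; adjusted p = 0.313 in limma). Ifi35, an interferon-induced leucine zipper protein, had 1535 and 1451 in spleen GFP-RFP+ cells, against 1882 and 2003 in spleen GFP+RFP+ cells. In lymph node Ifi35 had 1608 and 1526 in GFP-RFP+ cells, against 1975 and 2039 in GFP+RFP+ cells. Its 3 probe sets differed by -0.31, -0.37 and -0.48, so all were lower in GFP-RFP+ cells. For the representative probe set the difference was -0.37 ± 0.11 (SE, 4 pools; adjusted p = 0.317 in limma).

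Gbp2, a guanylate-binding GTPase that acts against intracellular pathogens, also lies outside the rule and was picked after its values were seen. It had 1015 and 919.6 in spleen GFP-RFP+ cells, against 1292 and 1222 in spleen GFP+RFP+ cells. In lymph node Gbp2 had 904 and 905 in GFP-RFP+ cells, against 1175 and 1208 in GFP+RFP+ cells. The populations did not overlap, and the difference was nearly the same in spleen (-0.38) and lymph node (-0.40). The related Gbp3 differed by -0.16, lower on the GFP-RFP+ arrays within each organ but overlapping across the organs. The ADP-ribosyltransferase family members Parp9 and Parp14 differed by -0.19 and -0.18, and Rtp4, a chaperone of membrane receptors, by -0.29. A second Rtp4 probe set, Present on 3 arrays, had the opposite sign (0.82).

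Samhd1 encodes the phosphohydrolase that depletes the nucleotides a virus needs. It had 3006 and 2705 in spleen GFP-RFP+ cells, against 3286 and 3199 in spleen GFP+RFP+ cells. In lymph node Samhd1 had 2880.5 and 3077 in GFP-RFP+ cells, against 2984 and 3233 in GFP+RFP+ cells. The lymph node arrays overlapped, and the difference over both organs was -0.12 ± 0.12 (SE, 4 pools; adjusted p = 0.636 in limma).

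The cytosolic RNA sensors did not move as a block. Ifih1 (Mda5) differed by 0.080 and Dhx58 (Lgp2) by -0.26, and a second Dhx58 probe set, Present on 2 arrays, by 0.0080. The nucleic acid sensor Zbp1 differed by 0.039, and its second probe set, Present on all 8 arrays, by -0.21. Of the oligoadenylate synthetase family, Oas1a differed by 0.12, Oas2 by -0.21, Oas3 by -0.44 and Oasl2 by -0.15, and in none of them were the arrays of the populations apart over both organs. Of the Ifit family, which bind foreign RNA, Ifit2 (-0.25) was lower on every GFP-RFP+ array. Ifit1 differed by 0.069 in spleen and -0.36 in lymph node. The antiviral factors Mx1 (-0.079), Bst2 (-0.077), Xaf1 (-0.12) and Trim25 (-0.17) and the exonuclease Isg20 (0.058) had arrays that overlapped over both organs.

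**Figure D2:**
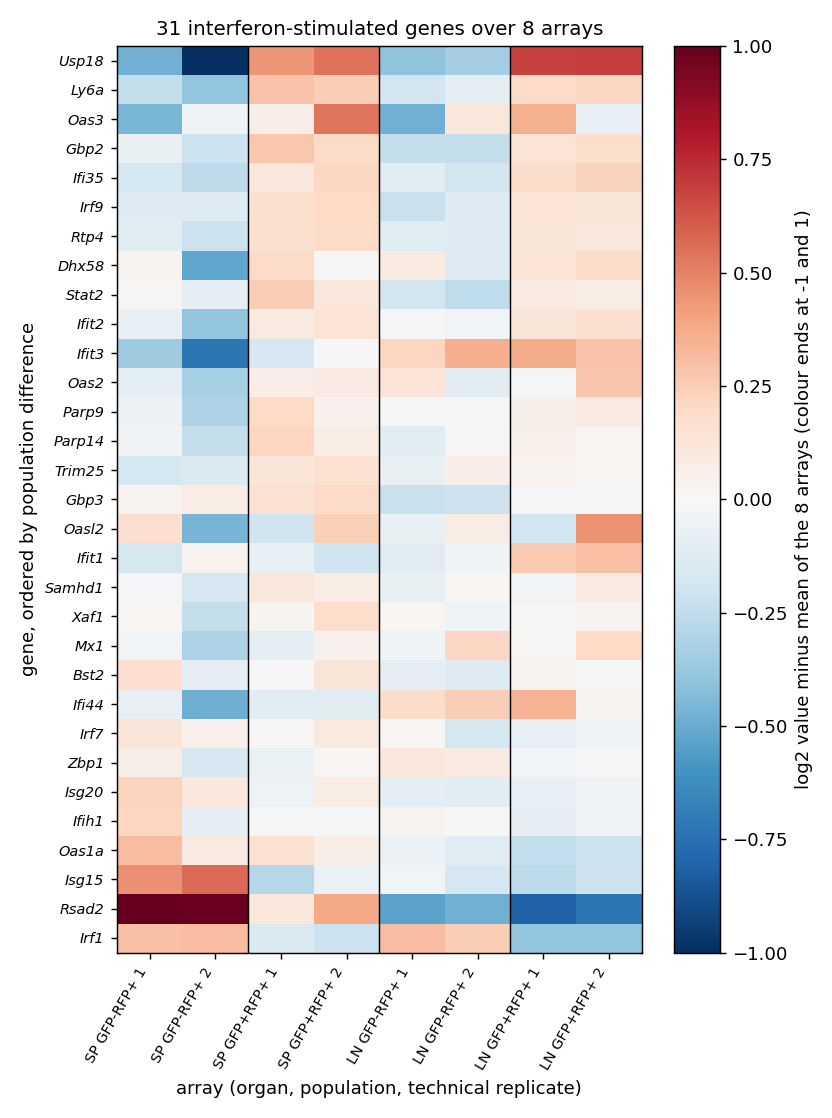
Log2 expression values of the 31 genes on the 8 arrays, each minus the mean of the gene over the 8 arrays, with colours ending at -1 and 1. Genes run from the lowest to the highest population difference. The columns are spleen (SP) GFP-RFP+, spleen GFP+RFP+, lymph node (LN) GFP-RFP+ and lymph node GFP+RFP+, with 2 technical replicates each. Usp18 changes colour with the population and Rsad2 with the organ, and 16 of the 31 genes are lowest on the second spleen GFP-RFP+ array.

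The second spleen GFP-RFP+ array was the lowest of the 8 for 16 of the 31 genes, as it was for 27.1% of the detected probe sets. Without it, 21 genes were lower and 10 higher in GFP-RFP+ cells, and 19 were lower in both organs beside 30.3% of the detected probe sets. The same 10 genes as before then had all GFP-RFP+ arrays below all GFP+RFP+ arrays, beside 14.3% of the detected probe sets, and 3 genes had them all above, against 1 before. Quantile normalization shifted the median of all probe sets to -0.041, gave 26 genes lower and 5 higher, and left the arrays of 13 genes lower without overlap, beside 23.0% of the detected probe sets. Median centring gave 24 lower and 7 higher, and the arrays of 10 genes lower without overlap, beside 13.9% of the detected probe sets. Samhd1 is among these 10 and Parp9 is not.

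The populations were then set side by side within each organ. By the rule of at least 0.5 log2 units and no overlap of the 2 arrays against 2, 5 of the 31 genes differed in spleen: Rsad2 and Isg15 were higher, and Usp18, Ly6a and Oas3 lower in GFP-RFP+ cells. Of these, Oas3 was Present on 0 of the 8 arrays. In spleen 22.6% of all probe sets and 17.6% of the detected ones met this rule, with 12.3% of the detected ones higher and 5.31% lower. In lymph node 2 of the 31 genes met it, Irf1 as higher and Usp18 as lower, beside 21.2% of all probe sets and 13.4% of the detected ones, of which 10.3% were higher and 3.04% lower. These shares of the 31 genes are close to or below those of all probe sets. The sign of the difference was the same in both organs for 26 of the 31 genes.

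Isg15 encodes the ubiquitin-like modifier that Usp18 removes. It had 951 and 1026 in spleen GFP-RFP+ cells, against 568 and 662 in spleen GFP+RFP+ cells. In lymph node Isg15 had 680.2 and 613 in GFP-RFP+ cells, against 579 and 600.1 in GFP+RFP+ cells. Only the spleen GFP-RFP+ arrays stood well above the rest. The difference between the populations was 0.69 in spleen and 0.13 in lymph node, and 0.41 ± 0.21 over both (SE, 4 pools; adjusted p = 0.441 in limma). The spleen difference exceeded the lymph node difference by 0.56. The interaction of organ and population, tested in limma over the 8 arrays against the spread between technical replicates, had an adjusted p of 0.824 for Isg15 and 0.842 for Rsad2. It called 0 of the 31 genes beside 0.00222% of all probe sets.

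**Figure D3:**
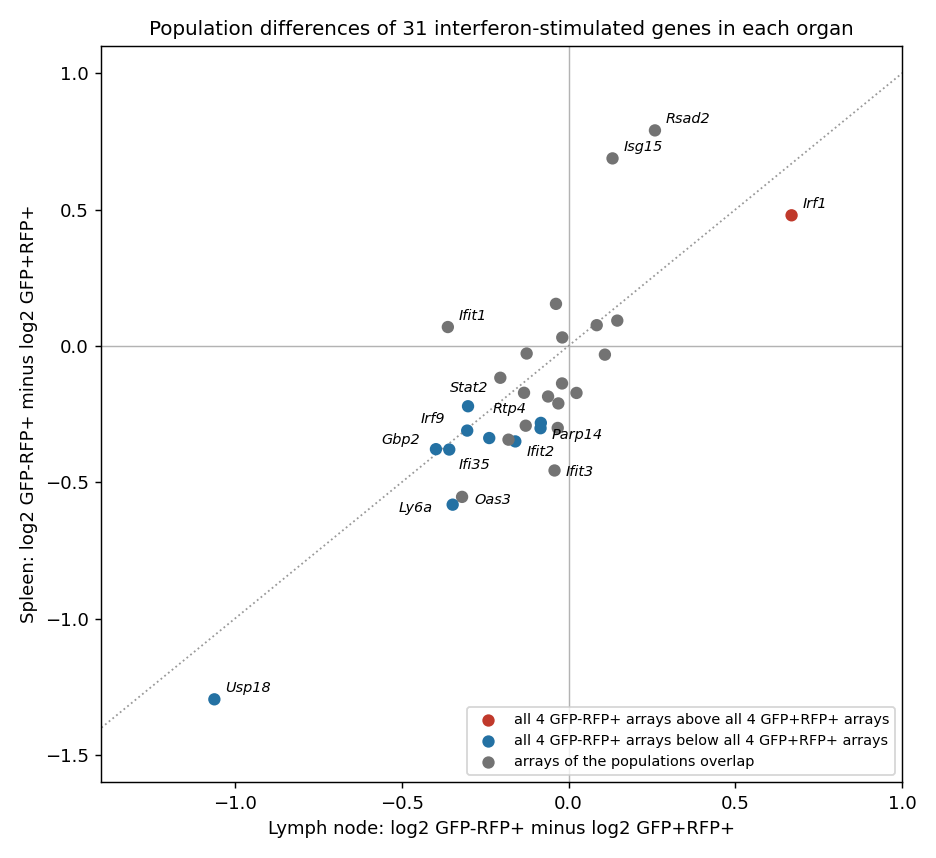
Difference between GFP-RFP+ and GFP+RFP+ cells (log2, means of 2 arrays) for the 31 genes, with lymph node on the horizontal and spleen on the vertical axis. The dotted line marks equal differences. Blue points are the 10 genes with all 4 GFP-RFP+ arrays below all 4 GFP+RFP+ arrays, red is Irf1, with all 4 above, and grey points overlap. Parp9 is plotted without its name. Rsad2 and Isg15 lie high on the spleen axis, at 0.79 and 0.69.

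Between the organs, Rsad2 was the gene that stood out, and it was higher in spleen in both populations. Rsad2 encodes viperin, a radical-SAM enzyme that makes an antiviral nucleotide. It had 345 and 324 in spleen GFP-RFP+ cells, against 113 and 117 in lymph node GFP-RFP+ cells. It had 176 and 213 in spleen GFP+RFP+ cells, against 93.3 and 98.8 in lymph node GFP+RFP+ cells. Every spleen array was above every lymph node array. The difference, spleen minus lymph node, was 1.54 in GFP-RFP+ cells and 1.01 in GFP+RFP+ cells, and 1.28 ± 0.20 over both (SE, 4 pools; 95% interval 0.547 to 2.004), a 2.42-fold higher value in spleen. All 3 Rsad2 probe sets were higher in spleen, by 0.58, 1.38 and 1.28. Between the populations Rsad2 differed by 0.79 in spleen and 0.26 in lymph node, and by 0.52 ± 0.20 over both (SE, 4 pools; adjusted p = 0.369 in limma).

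Ifit3, an RNA-binding member of the Ifit family, went the other way. It had 114 and 88.6 in spleen GFP-RFP+ cells, against 169 and 188 in lymph node GFP-RFP+ cells. It had 130.2 and 147 in spleen GFP+RFP+ cells, against 189 and 179 in lymph node GFP+RFP+ cells. All spleen arrays were below all lymph node arrays, and the difference was -0.62 ± 0.17 (SE, 4 pools; adjusted p = 0.621 in limma). Ifi44, an interferon-induced GTP-binding protein, was likewise lower in spleen. It had 33.97 and 25.7 in spleen GFP-RFP+ cells and 33.4 and 33.3 in spleen GFP+RFP+ cells. In lymph node Ifi44 had 40.9 and 42.6 in GFP-RFP+ cells and 45.9 and 36.8 in GFP+RFP+ cells. Its organ difference was -0.40 ± 0.13 (SE, 4 pools; adjusted p = 0.635 in limma).

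Over the 31 genes, the organ difference had a median of -0.00019, with 15 genes higher and 16 lower in spleen. The 4 spleen arrays did not overlap the 4 lymph node arrays for 7 genes, or 22.6%, beside 5.74% of the detected and 4.72% of all probe sets. Rsad2, Gbp3, Oas1a, Isg20 and Irf7 were higher in spleen, by 1.28, 0.23, 0.31, 0.17 and 0.15, and Ifit3 and Ifi44 were lower. With median centring Gbp3, Isg20 and Irf7 overlapped, and with quantile normalization Gbp3 and Isg20 did. Rsad2 was the only one of the 31 that differed by at least 0.5 log2 units without overlap in both populations, a rule met by 2.99% of all probe sets and 1.07% of the detected ones. In limma over the 4 pools 0 of the 31 genes and 0.0% of all probe sets had an adjusted p below 0.05, and 1 of the 31 and 3620 of all probe sets had an unadjusted p below 0.05. The adjusted p of Rsad2 was 0.580. Rsad2 was called as higher in spleen with an offset of 50 (0.848% of all probe sets called), with a prior variance that follows the level (1.62%) and with the 8 arrays as samples (0.719%), and not among the probe sets above the median level (0.671%). With the variance that follows the level Ifit3 was also called, as lower in spleen.

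Markers of other cells differed with the organ. The summed value of 5 erythroid probe sets was 12765 to 14126 in spleen GFP-RFP+ cells and 9809 to 10729 in spleen GFP+RFP+ cells, against 117 to 146 in lymph node GFP-RFP+ cells and 79.8 to 85.9 in lymph node GFP+RFP+ cells. The sum of 8 myeloid and dendritic cell markers was 1452 to 2064 in spleen GFP-RFP+ cells and 1114 to 1482 in spleen GFP+RFP+ cells, against 192 to 203 and 187 to 211 in the same populations of the lymph node. The sum of 6 B cell markers was 613 to 900 and 499 to 703 in these spleen populations, against 240.1 to 261 and 270.4 to 273 in the lymph node. Of the 8 myeloid and dendritic cell markers, 2 were Present on all 8 arrays, while Itgam was Present on 2 arrays and Cd14 on 3. The sum of 4 plasmacytoid dendritic cell markers was 727 to 867 in spleen and 792 to 849.8 in lymph node, and that of 6 CD8 T and NK cell markers 198 to 259.6 and 221 to 287. Such sums follow the brightest markers. The median organ differences of these 2 lists were 0.63 and 0.030. By the rule of 0.5 log2 units without overlap in both populations, 2 of the 4 and 1 of the 6 were higher in spleen. That rule was met by 2.99% of all probe sets and 1.07% of the detected ones. The part of these cells in the organ differences of Rsad2, Isg15, Ifit3 and the other genes was not tested. In such pools a change in the share of a cell type and a change in RNA per cell cannot be told apart.

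Across the 8 arrays the 31 genes did not vary together as a single block. The range over the arrays was 0.27 to 1.89 log2 units per gene with a median of 0.50, beside 0.49 for the detected probe sets. Over the 465 pairs of genes the median Pearson correlation was 0.31, with 52 pairs above 0.8, 14 below -0.8 and 159 below 0. The 8 points are 4 pools in duplicate, so these coefficients only describe the arrays. Pairs of other probe sets were not counted, so the counts cannot be read as particular to these genes. The partners named next were picked from the highest and lowest coefficients. The values of Usp18 ran with those of Ifi35 (r = 0.97), Ly6a (r = 0.97), Rtp4 (r = 0.95) and Ifit2 (r = 0.94), and against those of Irf1 (r = -0.94) and Isg15 (r = -0.81). The values of Rsad2 ran with those of Isg20 (r = 0.91), Oas1a (r = 0.90) and Isg15 (r = 0.84), and against those of Ifit3 (r = -0.92) and Ifi44 (r = -0.82).

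Other genes of the interferon pathway, from lists chosen with earlier results known, place these values. Of 6 interferon genes with a probe set, Ifng alone was Present on all 8 arrays, Ifnb1 was Present on 4, Ifna1 on 1, and Ifna2, Ifna4 and Ifna5 on 0. Ifng, the gene of interferon gamma, had 1219 and 892 in spleen GFP-RFP+ cells, against 92.8 and 103 in spleen GFP+RFP+ cells. In lymph node Ifng had 1088 and 867 in GFP-RFP+ cells, against 89.7 and 100.5 in GFP+RFP+ cells. The higher value in GFP-RFP+ cells was of similar size in both organs, at 3.41 in spleen and 3.35 in lymph node (3.38 ± 0.11 over both, SE, 4 pools). Its adjusted p in limma was 0.282 over all probe sets and 0.0024 over those above the median level. The interferon-induced chemokine Cxcl10 had 2006 and 2462 in spleen GFP-RFP+ cells, against 218 and 261 in spleen GFP+RFP+ cells. In lymph node Cxcl10 had 1742 and 1585 in GFP-RFP+ cells, against 203 and 263 in GFP+RFP+ cells, and the difference over both organs was 3.03 ± 0.16 (SE, 4 pools). Whether interferon gamma had a part in the differences of Cxcl10, Irf1 or any other gene was not tested.

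Of 14 receptor and JAK-STAT genes, 4 had all GFP-RFP+ arrays higher and 3 had them lower, where 23.8% of the detected probe sets were higher and 13.1% lower in this sense. The chains of the type I receptor are named here although they fall outside the rule. By the rule of 0.5 log2 units in both organs 2 were higher, the inhibitor Socs3 (0.91 in spleen, 0.94 in lymph node) and the receptor chain Ifngr2 (0.95 and 0.69). Of the detected probe sets 8.2% met this rule as higher and 2.05% as lower. Ifnar2 differed by -0.28, lower on every GFP-RFP+ array, and Ifnar1 by -0.0022. Of 18 genes of nucleic acid sensing and interferon induction, 3 had all GFP-RFP+ arrays higher and 4 lower, beside 23.8% and 13.1% of the detected probe sets. In both organs Irf4 (1.53 in spleen, 1.17 in lymph node) was higher and the RNA sensor Tlr7 (-1.04 and -0.72) lower by the rule, beside 8.2% and 2.05% of the detected probe sets. Of 47 further interferon-induced genes with a probe set, 18 had all GFP-RFP+ arrays lower and 3 higher, beside the same 13.1% and 23.8% of the detected probe sets, with a median of -0.20 over the 47. The 47 genes were represented by 46 different probe sets, and 40 genes were Present on all 8 arrays and 3 on 0. In both organs 2 of the 47, Cxcl10 and Ifitm2, met the rule as higher and 4 as lower, beside the same 8.2% and 2.05%. In either direction the rule was met by 10.3% of the detected probe sets.

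These 4 genes were Ifit1bl1, the immunity-related GTPases Irgm2 and Tgtp1, and Slfn1, a gene of the Schlafen family. Ifit1bl1 had 850.5 and 668 in spleen GFP-RFP+ cells, against 1613 and 1546 in spleen GFP+RFP+ cells. In lymph node Ifit1bl1 had 685 and 743 in GFP-RFP+ cells, against 1335 and 1379 in GFP+RFP+ cells, so the populations were apart in both organs. The spleen and lymph node differences were -0.99 and -0.72 for Irgm2, -0.67 and -0.50 for Tgtp1, and -0.91 and -0.57 for Slfn1. Between the organs, Ifitm1 and Ifitm3, which restrict viral entry, were higher in spleen in both populations by the same rule, by 0.64 and 1.22 over both. Between the organs the rule was met by 2.99% of all probe sets and 1.07% of the detected ones. Ifitm1 was Present on 5 of the 8 arrays.

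**Figure D4:**
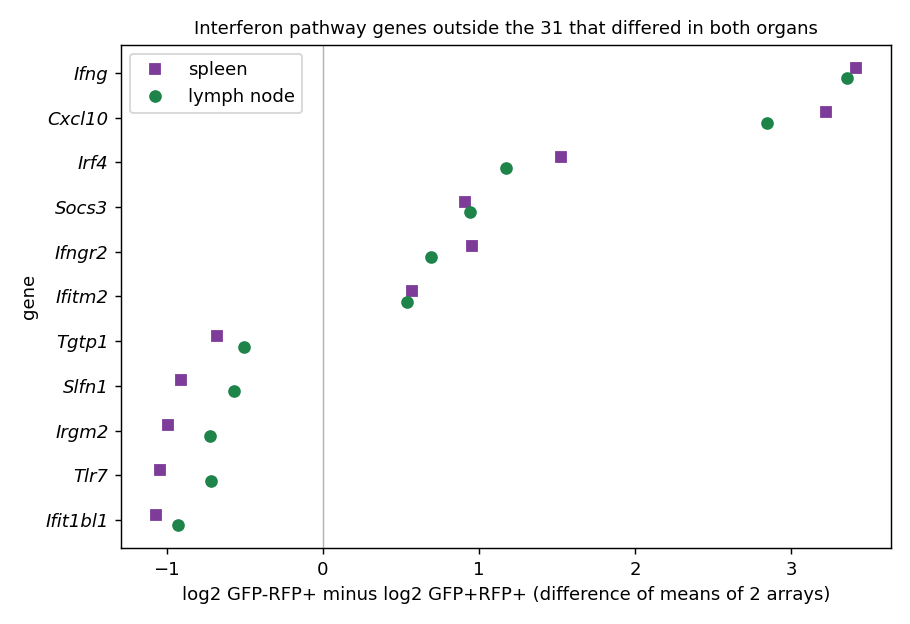
Difference between GFP-RFP+ and GFP+RFP+ cells (log2, means of 2 arrays) for the 11 interferon pathway genes outside the 31 that met the rule of 0.5 log2 units without overlap in both organs, with squares for spleen and circles for lymph node. Ifng and Cxcl10 lie between 2.85 and 3.41, and the 5 genes left of 0 lie between -1.07 and -0.50.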

How the data were processed

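The labels describe 8 Mouse430_2 arrays of 4 sorted pools, with 2 technical replicates per pool. Per the deposited value table, whose columns carry the sample names, the authors gave 1 linear intensity per probe set. Each column equals 1 column of the deposited dChip table in every one of the 45101 probe sets and shares at most 350 values with any other, so the values are dChip model-based, per the file headers, although the submitters' processing notes name RMA. The dChip columns match no label, so detection calls were counted only over unlabelled arrays.

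The 64 control probe sets were left out, no further scaling was done, and log2 values of the 2 arrays of a pool were averaged. The 4 pools were fitted in limma 3.58.1 (R 4.3.3) with organ and population as terms, which leaves 1 residual degree of freedom, and p-values were adjusted over 45037 probe sets at a threshold of 0.05. The spread measured is how far the population difference disagrees between the 2 organs of the same mice. The organ difference has the same residual, as its disagreement between the 2 populations. In limma this spread is moderated by a prior over all probe sets (1.46 prior degrees of freedom). The script was tested on simulated data. The number of arrays limits the precision.

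Values on every array are given for genes past the threshold, for those that differ by 0.5 log2 in both organs, for the 4 largest differences of each comparison and for the 4 highest means. The members and lists were chosen with earlier results of these data known. Alternatives were quantile normalization, median centring, an offset of 50, probe sets above the median, the mean of a gene's probe sets, 8 arrays as samples with and without a replicate block, and leaving out arrays.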

Additional observations from a re-analysis of the deposited data

How the results depend on the processing

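The fits over the 4 pools called 0 probe sets in either comparison as deposited, after quantile normalization or median centring, with the mean of a gene's probe sets, and without any single array. At an unadjusted p below 0.05 limma had 7282 probe sets for the population and 3620 for the organ. Other settings gave calls, and the cause was not tested. For the population, 8 arrays as samples gave 4692 probe sets and 7 of the 31 genes, an offset of 50 gave 6323 and 7, probe sets above the median gave 4478 and 6, and a variance trend, chosen after seeing the data, gave 6638 and 10. For the organ the same settings gave 324 and 1, 382 and 1, 151 and 0, and 731 and 2. The array numbers do not pair the samples (deviations of same-numbered arrays correlated between -0.10 and 0.13 over 6 pairs, and 3 of 4 pools were closest to their own number). With the number as a replicate block, 3591 probe sets and 5 of the 31 genes were called for the population and 185 and 0 for the organ. The genes without overlap between organs numbered 7, and 4 after median centring. Signs turned only for differences near 0. The Ifi44 population difference became 0.0057 without the first lymph node GFP+RFP+ array and 0.026 without the second spleen GFP-RFP+ array, and was -0.175 at its lowest, without the first spleen GFP-RFP+ array. The organ difference of Ly6a became 0.023 without replicate 2 of every group. That of Samhd1 became 0.058 with the mean of its probe sets, 0.10 without replicate 2 of every group, and 0.0236, 0.0288, 0.0378 and 0.0094 without single arrays, with -0.038 the lowest of these. Leaving out arrays gave population differences of -1.36 to -1.002 for Usp18, 0.56 to 0.59 for Irf1, 0.43 to 0.62 for Rsad2 and 0.33 to 0.49 for Isg15. The organ difference of Rsad2 was then 1.21 to 1.34 and that of Ifit3 -0.71 to -0.53. The deposited dChip table as a separate input was not run, because its columns match no label. Weak probe sets such as that of Oas3 are limited by background.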

Other observations

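Probe sets of the same gene were not always of like size in their differences. A second Samhd1 probe set, Present on all 8 arrays, had 106 and 114 in spleen GFP-RFP+ cells, against 321 and 297 in spleen GFP+RFP+ cells. In lymph node it had 99.2 and 166 in GFP-RFP+ cells, against 235 and 258 in GFP+RFP+ cells. Its population difference was -1.21, against -0.12 for the probe set that represents Samhd1 above. The other Samhd1 probe sets, of 5 in all, differed by -0.021, -0.081 and -0.071, with overlapping arrays of the populations. A second Xaf1 probe set, Present on 6 arrays, differed by -1.04, against -0.12 for the probe set used for Xaf1 above. These second probe sets of Samhd1 and Xaf1 were lower by at least 0.5 log2 units without overlap in both organs. In either direction 8.1% of all probe sets met that rule. Which transcripts these probe sets detect was not tested.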
